A study of Arabidopsis thaliana with 21 samples.

Results

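The genes described here are 10 genes of zinc and copper transport in Arabidopsis thaliana, taken by locus from the 32833 genes of the deposited table. For zinc they are ZIP1, ZIP3, ZIP4, ZIP5 and ZIP9, and for copper COPT1, COPT2, FRO4, FRO5 and SPL7. RNA was sequenced from complete 7-day-old seedlings grown in liquid 0.5x MS medium, a standard plant medium that holds zinc and copper, and the labels name no metal treatment. The 7 groups of 3 libraries were the wild type Col, the lines NEET5-4, NEET10-10 and NEET11-9, and the lines H89C4-7, H89C11-7 and H89C23-10. The NEET and H89C lines are named after AtNEET, a protein that carries an iron-sulfur cluster, and the title of the series calls the H89C form dominant-negative. In H89C a histidine is exchanged for a cysteine. The labels give no promoter, tag, insertion site or parent background for the lines, and no statement on whether the 3 libraries of a group came from separate cultures. The spread behind each p-value is thus the one between libraries of a group and may be only technical.

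Plants take up zinc through ZIP proteins, a family of membrane importers, and 2 transcription factors, bZIP19 and bZIP23, switch on a set of ZIP genes when zinc runs short. The 5 ZIP genes described here belong to that set. Copper is reduced at the root surface by the ferric reductase oxidases FRO4 and FRO5 and enters cells through COPT proteins, which form copper channels in the membrane. SPL7 is the transcription factor that turns on copper uptake and saves copper when the metal is scarce, and FRO4, FRO5 and COPT2 are among its known targets.

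The libraries held 8.24 mega (M) reads in Col replicate 3 and 17.88 to 24.68 M in the others. Values are the authors' normalized counts, gene counts divided by 1 size factor per library, and changes are given as log2(normalized count + 1). Testing by limma covered the 20699 genes that reached a normalized count of 10 in 3 or more libraries, and a gene was called at a Benjamini-Hochberg adjusted p under 0.05. Of the 10 genes 9 were tested and FRO5 was not. The AtNEET level, which adds transgene and endogenous transcripts, averaged 261 in Col, 332 in NEET11-9, 18191 in NEET5-4, 32837 in NEET10-10, 1299 in H89C23-10, 2380 in H89C11-7 and 16100 in H89C4-7. Col replicate 1 and NEET10-10 replicate 1 were unlike the rest of their groups: paired with either, a replicate gave a chi-square over its degrees of freedom of 8.10 to 14.8, while all other pairs gave 1.41 to 2.76.

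Per kilobase of annotated exon, averaged over the 7 groups, COPT1 was the most abundant of the 10 at 1162 normalized counts. COPT2 had 304 and SPL7 299 per kilobase. The ZIP genes lay lower, with 103 for ZIP3, 56.6 for ZIP5, 50.8 for ZIP1, 43.6 for ZIP4 and 5.98 for ZIP9, and the reductase genes had 38.9 for FRO4 and 0.313 for FRO5. Whole seedlings were sampled, so a lower count in this bulk RNA can come from fewer cells of a type or from less RNA per cell, and these cannot be told apart.

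Across the 6 lines the 9 tested genes gave 54 comparisons with Col, of which 12 were called, 3 higher and 9 lower. In 11 of the 12 the 3 libraries of the line lay wholly outside the range of the Col libraries. The calls were made on these same libraries, so this adds no support to them. The same share over all called genes was not counted. H89C4-7 had 5 of the 9 genes called, 1 higher and 4 lower, and in that line 66.6% of all tested genes were called, 33.6% higher and 33% lower. H89C11-7 had 2, 1 higher and 1 lower, beside 37.7% of all genes, 19.8% higher and 17.9% lower. H89C23-10 also had 2, 1 higher and 1 lower, beside 22.1%, with 11.5% higher and 10.5% lower. Of the NEET lines, NEET5-4 had 2 lower and 0 higher beside 31%, with 14.1% higher and 16.9% lower. NEET10-10 had 1 lower beside 30.3%, with 15.6% higher and 14.7% lower, and NEET11-9 had 0 beside 10.9%, with 4.49% higher and 6.44% lower. The shares of the 9 genes called either way were close to or below these backgrounds. ZIP1 and SPL7 were called in no line.

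Lines were also compared with each other in the same fit, so the share of all tested genes called between a pair of lines is the background of each member difference given for that pair. H89C4-7 differed most from the rest, with 63.6% called against H89C11-7, 63.9% against H89C23-10, 66.3% against NEET10-10, 64.5% against NEET11-9 and 67.4% against NEET5-4. H89C11-7 differed from H89C23-10 in 22.9% of genes, from NEET10-10 in 44%, from NEET11-9 in 38% and from NEET5-4 in 46.9%. H89C23-10 differed from NEET10-10 in 34%, from NEET11-9 in 15.5% and from NEET5-4 in 34.8%. Among the NEET lines 28% were called between NEET11-9 and NEET10-10, 28.1% between NEET5-4 and NEET10-10, and 25.8% between NEET5-4 and NEET11-9. The plot of normalized counts by library shows these values, and the plot of changes against Col shows which of them were called.

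**Figure D1:**
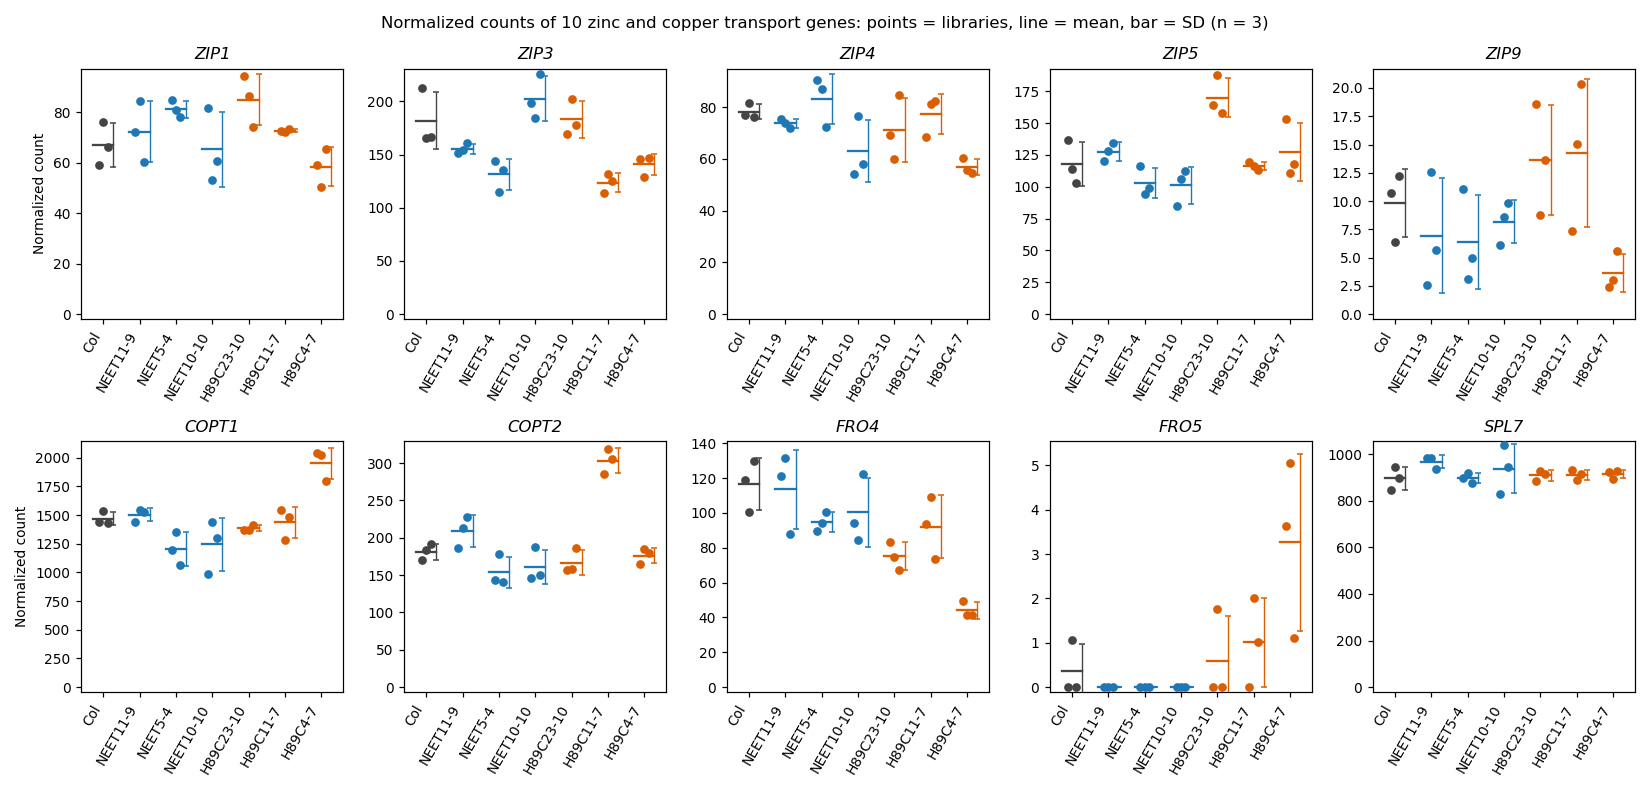
Normalized counts (y axis, starting at 0) of the 10 genes in each library of Col (black), the NEET lines (blue) and the H89C lines (orange), with 3 points per group, a line at the mean and a bar of 1 SD. FRO4 sits lowest in H89C4-7, COPT1 highest in H89C4-7, COPT2 highest in H89C11-7 and ZIP5 highest in H89C23-10, while SPL7 lies between 829 and 1041 in all 21 libraries.

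FRO4 (AT5G23980), a copper reductase of the root surface, showed the largest called change of the 9 genes, a fall in H89C4-7. Its normalized counts were 119, 101 and 129.9 in the 3 Col libraries. In the H89C lines they were 83.4, 74.9 and 67.5 for H89C23-10, 93.8, 109 and 73.3 for H89C11-7, and 49.6, 41.4 and 41.2 for H89C4-7. In the NEET lines they were 121, 131 and 88.1 for NEET11-9, 89.4, 94.2 and 101 for NEET5-4, and 93.9, 84.3 and 122 for NEET10-10. Every library of H89C4-7 lay below every other library of the study, and every library of H89C23-10 lay below every Col library. Against Col FRO4 fell by 1.38 ± 0.17 (SE) on the log2 scale in H89C4-7, a 2.6-fold lower level (limma adjusted p = 9.29e-08). In H89C23-10 it fell by 0.62 ± 0.17, 1.54-fold (limma adjusted p = 0.00927), and without replicate 3 of that line the call was lost (limma adjusted p = 0.0524). In H89C11-7 the change of -0.35 did not pass the test (limma adjusted p = 0.109), except when replicate 2 of that line was left out (-0.48, limma adjusted p = 0.0493). The NEET lines had changes of -0.05, -0.29 and -0.23 for NEET11-9, NEET5-4 and NEET10-10, none of them called.

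The order of FRO4 levels ran from Col over the 3 NEET lines, H89C11-7 and H89C23-10 to H89C4-7. Of neighbours in that order only H89C23-10 and H89C4-7 differed (log2 0.76, limma adjusted p = 3.72e-04). H89C4-7 was also lower than each NEET line, by log2 1.16 against NEET10-10, 1.33 against NEET11-9 and 1.09 against NEET5-4, and lower than H89C11-7 by 1.03. Thus H89C4-7 differed from all 6 other groups. The FRO4 line means were 44.0 to 92.1 over the 3 H89C lines and 94.8 to 113.5 over the 3 NEET lines. The nearest lines of the constructs, H89C11-7 and NEET5-4, did not differ by the test (limma adjusted p = 0.808). How many of all tested genes had line means apart in this way was not counted.

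FRO5 (AT5G23990), a close copy of FRO4, was at the limit of detection. The 9 NEET libraries held 0 reads each, and 0 reads allow up to 3 in a library. Col held 0, 1 and 0 reads, H89C23-10 held 0, 2 and 0, H89C11-7 held 0, 2 and 1, and H89C4-7 held 3, 5 and 1. All 3 libraries of H89C4-7 thus had at least 1 FRO5 read, but the counts are close to the floor and no fold was computed. On TAIR10.1, the RefSeq assembly that gives all positions here, FRO4 lies on chromosome 5 at 8097978 to 8101330 and FRO5 at 8105461 to 8108642, both on the minus strand and 4130 bases apart. Their coding sequences of 2100 bases are 92.6% identical with a longest identical run of 92 bases. How the authors' counter treated reads that match both is not given in the sources used here, so the split between the genes is uncertain. The stretch of 90 coding bases in which they differ most, coding bases 1696 to 1785 from the start codon, is printed because reads there can be assigned. Capitals mark the 16 bases that differ, and the sequences are RefSeq's for TAIR10.1.
FRO4: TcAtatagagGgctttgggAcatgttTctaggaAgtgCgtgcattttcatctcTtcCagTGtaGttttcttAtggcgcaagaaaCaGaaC
FRO5: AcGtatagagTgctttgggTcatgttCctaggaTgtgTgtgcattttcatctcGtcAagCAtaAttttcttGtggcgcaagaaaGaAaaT

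COPT1 (AT5G59030, chromosome 5, 23833493 to 23834745, minus strand, 1 exon), a copper importer of root tips and pollen, rose in H89C4-7. It held 1438, 1539 and 1432 in Col and 2038, 2021 and 1796 in H89C4-7, so the H89C4-7 libraries were the 3 highest of all 21. The other H89C lines had 1368, 1368 and 1413 for H89C23-10 and 1547, 1282 and 1480 for H89C11-7. The NEET lines had 1436, 1544 and 1527 for NEET11-9, 1192, 1356 and 1061 for NEET5-4, and 986, 1441 and 1304 for NEET10-10. H89C4-7 lay apart on the high side and NEET5-4 and H89C23-10 wholly below Col, while NEET10-10 overlapped Col through its second library. In H89C4-7 COPT1 rose by 0.41 ± 0.10 (SE), 1.33-fold (limma adjusted p = 7.32e-04), and this line was higher than each of the other 6 groups. The difference was log2 0.38 to NEET11-9, its neighbour in the order of levels (limma adjusted p = 0.00163), and no other neighbours in the order differed by the test.

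In NEET5-4 COPT1 fell by 0.30 ± 0.10, 1.23-fold (limma adjusted p = 0.0225). The call was lost without Col replicate 2 (limma adjusted p = 0.0715), without NEET5-4 replicate 1 (0.0567) and without NEET5-4 replicate 3 (0.157). In NEET10-10 it fell by 0.26 ± 0.10, 1.2-fold (limma adjusted p = 0.0471), and this call was lost under many alternatives. Without NEET10-10 replicate 1, one of the libraries that stood apart, the change was -0.10 (limma adjusted p = 0.413). The call was also lost without Col replicate 1 (0.0533), 2 (0.128) or 3 (0.0641), in edgeR (0.0629) and DESeq2 (0.0605), with no filter (0.0791) and with only the groups compared (0.194). NEET11-9, in which AtNEET was near the Col level, had a COPT1 change of 0.03 and differed from NEET10-10 by 0.29 (limma adjusted p = 0.0275) and from NEET5-4 by 0.33 (0.0136).

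COPT2 (AT3G46900, chromosome 3, 17268700 to 17269510, plus strand, 1 exon), a copper importer induced by copper shortage, rose in H89C11-7 and in no other line. Its normalized counts were 169.9, 183 and 191 in Col and 286, 318 and 305 in H89C11-7, the 3 highest values of the study. Those of H89C23-10 were 157, 158 and 186, and those of H89C4-7 were 164, 185 and 179. The NEET lines held 186, 214 and 228 for NEET11-9, 143, 178 and 140.3 for NEET5-4, and 146, 188 and 150.2 for NEET10-10. Outside H89C11-7 only NEET11-9 had libraries above all of Col, and it overlapped Col in its first. The rise in H89C11-7 was 0.74 ± 0.11 (SE), 1.67-fold (limma adjusted p = 1.22e-05), and it stayed called under every alternative run. Against the other H89C lines H89C11-7 was higher by log2 0.86 over H89C23-10 (limma adjusted p = 2.59e-06) and by 0.78 over H89C4-7 (1.5e-06), and it was higher than each NEET line and Col. Within the NEET lines, NEET11-9 was higher than NEET10-10 by 0.38 (limma adjusted p = 0.0134) and than NEET5-4 by 0.45 (0.00389). COPT1 and COPT2 are 79.0% identical over 471 aligned coding bases, with no identical run over 30 bases.

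SPL7 (AT5G18830, chromosome 5, 6275895 to 6280681, plus strand), the regulator of the copper shortage response, varied least of the 9 genes between groups. Its values were 848, 947 and 897 in Col, and group means ran from 898 in Col to 968 in NEET11-9, 1.08-fold apart. None of the 21 pairs of groups was called, and the smallest limma adjusted p among them was 0.238. The changes against Col were between 0.00 and 0.11 with an SE of 0.06. The SD of its group means on the log2 scale was 0.04, against a median of 0.23 over all tested genes.

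**Figure D2:**
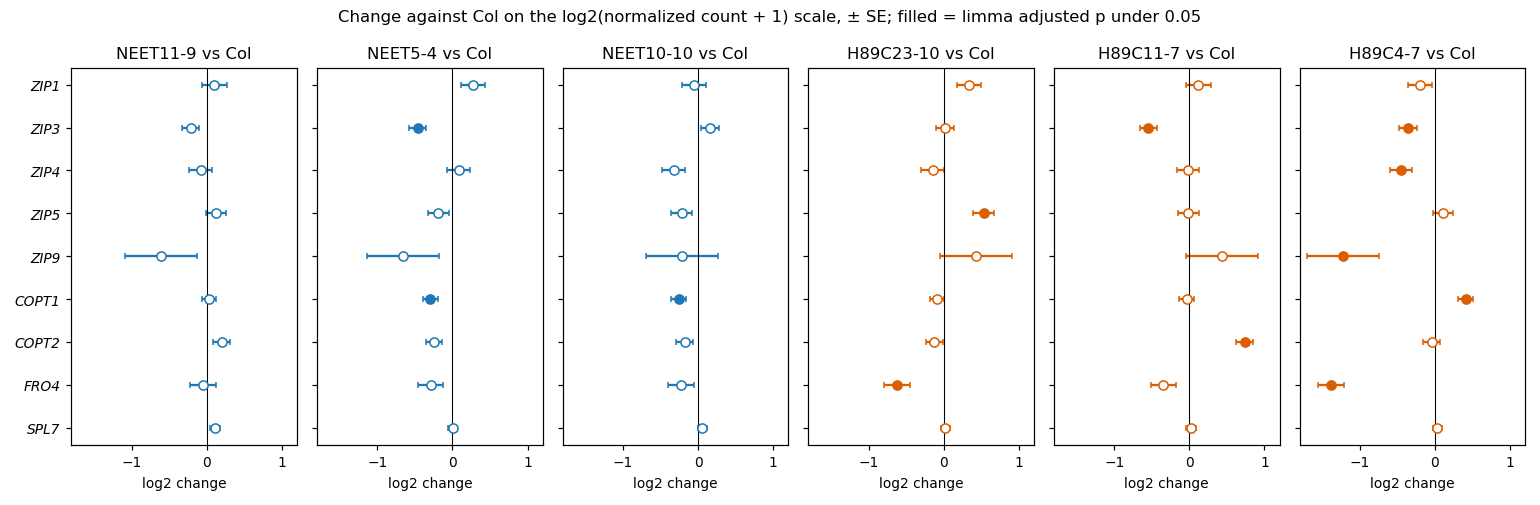
Change of the 9 tested genes against Col in each line on the log2(normalized count + 1) scale (x axis), as points with bars of 1 SE; filled points had a limma adjusted p under 0.05. H89C4-7 has 5 filled points, among them FRO4 at -1.38 and COPT1 at 0.41, NEET11-9 has 0, and SPL7 stays between 0.00 and 0.11 in every line.

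Among the zinc importers ZIP3 (AT2G32270, chromosome 2, 13704068 to 13706928, plus strand) changed in the most lines. It held 213, 166 and 167 in Col, and H89C11-7 held 114, 132 and 125. The values were 169, 203 and 178 for H89C23-10 and 146, 129 and 147 for H89C4-7. They were 152, 154 and 161 for NEET11-9, 144, 115 and 135 for NEET5-4, and 198, 184 and 225 for NEET10-10. The libraries of H89C11-7, H89C4-7, NEET5-4 and NEET11-9 all lay below the lowest Col library, and those of H89C23-10 and NEET10-10 overlapped Col. ZIP3 fell by 0.54 ± 0.12 (SE) in H89C11-7, 1.46-fold (limma adjusted p = 5.69e-04). In NEET5-4 it fell by 0.46 ± 0.12, 1.38-fold (limma adjusted p = 0.00293), and in H89C4-7 by 0.36 ± 0.12, 1.28-fold (limma adjusted p = 0.00839). The H89C4-7 call was lost without Col replicate 1, the highest Col library (limma adjusted p = 0.077). The change in NEET11-9, -0.21, did not pass the test (limma adjusted p = 0.256).

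ZIP3 did not sort the lines by construct, since both constructs held lines with and without a fall. NEET10-10, highest at a mean of 202, differed from NEET5-4 by log2 0.62 (limma adjusted p = 1.45e-04), although both carried far more AtNEET than Col. H89C23-10 differed from H89C11-7 by 0.56 (limma adjusted p = 7.26e-04). No neighbours in the order of ZIP3 levels, from NEET10-10 down to H89C11-7, differed by the test.

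ZIP5 (AT1G05300, chromosome 1, 1544927 to 1547849, minus strand), the nearest relative of ZIP3 among the 5 ZIP genes at 79.9% coding identity, rose in H89C23-10 alone. Col held 137, 114 and 103, and H89C23-10 held 164, 188 and 158, wholly above Col. H89C11-7 held 119, 116 and 113, and H89C4-7 held 153, 111 and 118. The NEET lines held 120.1, 128 and 135 for NEET11-9, 116, 94.2 and 98.8 for NEET5-4, and 84.7, 106 and 113 for NEET10-10. All groups other than H89C23-10 overlapped Col. The rise was 0.53 ± 0.14 (SE), 1.45-fold (limma adjusted p = 0.00592). H89C23-10 was also higher than the other 5 lines, by log2 0.54 over H89C11-7 (limma adjusted p = 0.00428), 0.42 over H89C4-7 (0.00894) and 0.41 over NEET11-9 (0.0417), and by 0.72 and 0.75 over NEET5-4 and NEET10-10.

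ZIP4 (AT1G10970, chromosome 1, 3665087 to 3667139, minus strand) fell in H89C4-7. It held 76.9, 81.4 and 76.0 in Col and 60.4, 55.5 and 54.5 in H89C4-7, with no overlap. H89C23-10 held 69.1, 59.9 and 84.5, and H89C11-7 held 68.5, 81.1 and 82.4. The NEET lines held 75.5, 73.7 and 71.8 for NEET11-9, 90.3, 86.9 and 72.1 for NEET5-4, and 54.1, 76.6 and 58.1 for NEET10-10. The fall in H89C4-7 was by 0.45 ± 0.15 (SE), 1.37-fold (limma adjusted p = 0.0104). The order of levels ran from NEET5-4 to H89C4-7 without a step between neighbours that passed the test, while its ends differed by log2 0.54 (limma adjusted p = 0.00294). In NEET10-10 the change of -0.32 did not pass (limma adjusted p = 0.108), and without replicate 2 of that line it was -0.47 (0.0272).

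ZIP9 (AT4G33020, chromosome 4, 15932420 to 15934762, minus strand) had the lowest level of the tested genes and also fell in H89C4-7, by 1.23 ± 0.48 (SE), 2.34-fold (limma adjusted p = 0.0283). Its values rest on few reads, 12, 6 and 5 in the Col libraries and 2, 3 and 5 in H89C4-7. The call was lost in edgeR (adjusted p = 0.0716), in DESeq2 (0.0694) and without any of 4 single libraries, Col replicates 1 and 3 and H89C4-7 replicates 1 and 2 (limma adjusted p = 0.0676 to 0.1). In the other lines the mean normalized count was 14.2 in H89C11-7, 13.7 in H89C23-10, 8.19 in NEET10-10, 6.95 in NEET11-9 and 6.37 in NEET5-4, against 9.8 in Col. Normalized counts ran from 7.38 to 20.3 in H89C11-7 and from 8.81 to 18.5 in H89C23-10, all above the H89C4-7 range of 2.42 to 5.56. The differences of H89C4-7 from these lines were log2 -1.66 and -1.65 (limma adjusted p = 0.0042 and 0.00441).

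ZIP1 (AT3G12750, chromosome 3, 4051651 to 4053201, minus strand) was called in no line against Col. It held 59.0, 76.1 and 66.2 in Col, and group means ran from 58.4 in H89C4-7 to 85 in H89C23-10. H89C4-7 was lower than H89C23-10 by log2 0.53 (limma adjusted p = 0.00583) and lower than NEET5-4 by 0.47 (0.0122). The 3 H89C23-10 libraries at 94.4, 86.3 and 74.3 overlapped Col, and its change of 0.34 had a limma adjusted p of 0.141. ZIP1 overlaps ALIS1, a gene on the opposite strand with group means of 1348 to 1714 normalized counts, by 125 bases. The strand setting of the count is not given in the sources used here, so ALIS1 reads in ZIP1 cannot be told apart from its own.

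The upstream regions of these genes were searched on both strands for TGTCGACA, the core of the zinc deficiency response element bound by bZIP19 and bZIP23, and for GTAC, the core of the copper response element bound by SPL7. Both cores are their own reverse complement and do not overlap. Only exact matches before the annotated start were counted, and bases after it were not searched. TGTCGACA was present within 300 bases of the annotated start of 0.324% of 27443 genes and of 1 of the 10, ZIP4, at 39 bases. Within 1000 bases it was present in 1.03% of genes and in 2 of the 10, ZIP4 and ZIP5. The 300 bases before ZIP4 (TAIR10.1, chr1:3667140-3667439, minus strand) and 30 bases around the site 831 bases before ZIP5 (chr1:1548662-1548691, minus strand) are printed with the core in capitals, because ZIP4 and ZIP5 carry the same element and were called in different lines and directions. The nearest gene upstream of ZIP4 is 84 bases away, so most of that window lies inside it.
ZIP4: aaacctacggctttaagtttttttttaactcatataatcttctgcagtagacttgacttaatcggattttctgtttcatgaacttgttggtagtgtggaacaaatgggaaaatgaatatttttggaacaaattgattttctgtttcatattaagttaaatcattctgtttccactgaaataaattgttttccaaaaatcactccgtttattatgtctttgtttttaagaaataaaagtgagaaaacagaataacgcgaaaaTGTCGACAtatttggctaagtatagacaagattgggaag
ZIP5: cgtacaatttaTGTCGACAttctctcgaca

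GTAC is short and was present within 300 bases of 39.7% of genes, and within 1000 bases of 82.3%. Of the 10 genes only ZIP9 held it within 300 bases, at 97 and 29 bases before the start, and 8 of 10 held it within 1000. The 300 bases before ZIP9 (chr4:15934763-15935062, minus strand) are printed with GTAC in capitals as the 1 window of the 10 that holds it.
ZIP9: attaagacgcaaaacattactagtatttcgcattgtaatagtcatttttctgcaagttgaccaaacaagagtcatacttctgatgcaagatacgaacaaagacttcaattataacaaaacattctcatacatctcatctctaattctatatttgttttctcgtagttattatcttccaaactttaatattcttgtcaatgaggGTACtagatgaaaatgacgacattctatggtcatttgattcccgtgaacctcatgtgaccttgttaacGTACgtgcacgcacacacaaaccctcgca

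The other genes of zinc and copper handling were counted in lists that held 46 tested genes together. ZIP10, ZIP12, MTP2, COPT3, FRO1, MT1A and the precursors MIR397A, MIR398B, MIR398C and MIR408 fell below the filter. In every line genes were called in both directions. H89C11-7 had 13 higher and 12 lower, 54.3% of the 46 beside 37.7% of all tested genes. H89C23-10 had 3 and 13, 34.8% beside 22.1%, and H89C4-7 had 11 and 19, 65.2% beside 66.6%. NEET10-10 had 5 and 15, 43.5% beside 30.3%, NEET11-9 had 2 and 8, 21.7% beside 10.9%, and NEET5-4 had 4 and 21, 54.3% beside 31%. Lower calls thus outnumbered higher ones in 5 of the 6 lines. All lines were compared with the same Col libraries, so these are not independent results. The lists were chosen with earlier results of these data known. Their shares beside those of all genes, here and below, are thus descriptions and not tests. The medians on the log2 scale were -0.03, -0.09, -0.19, -0.13, -0.05 and -0.24 in that order of lines, beside medians within 0.01 of 0 over all tested genes. In the fits of only the groups compared, 0 higher and 8 lower were called in H89C23-10. NEET10-10 then had 4 and 7, and NEET11-9 had 0 and 6. Calls over all tested genes were also fewer there, 2430, 2497 and 865 beside 4568, 6277 and 2261 in the main fit. In H89C23-10 the counts of the 46 were also 6 and 8 without Col replicate 1 and 1 and 14 without Col replicate 2. Without its own replicates 1, 2 and 3 they were 2 and 8, 1 and 10, and 2 and 11. With 1 library left out, calls over all tested genes in H89C23-10 ranged from 3288 to 4853. The higher counts of H89C11-7, NEET10-10 and NEET5-4 include CITF1, which rests on very few reads. The heat map of the 46 genes shows each change.

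**Figure D3:**
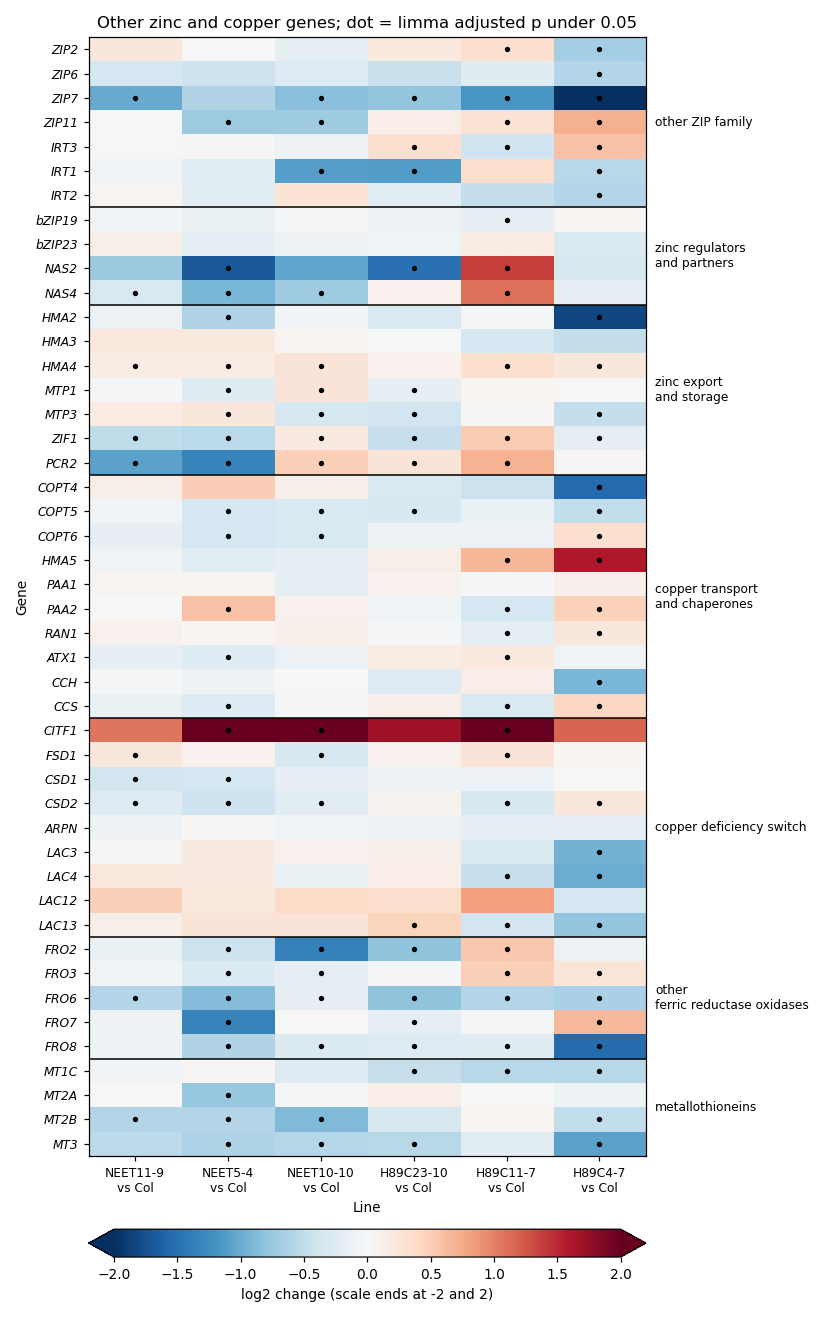
Change of 46 other zinc and copper genes (y axis, grouped by list) against Col in each line (x axis), as a colour scale of log2 change from -2 (blue) to 2 (red); a dot marks a limma adjusted p under 0.05. ZIP7 is blue in all 6 lines, HMA5 is red in H89C4-7 at 1.60 and in H89C11-7 at 0.66, and CITF1, at very few reads, is red in all 6.

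The zinc regulators stayed near their Col level. bZIP19 fell by 0.16 on the log2 scale in H89C11-7 (limma adjusted p = 0.0274), a call lost under several alternatives, with 0.122 without Col replicate 1 and 0.0578 in DESeq2, and bZIP23 was called in no line. Of the 8 tested genes known as bZIP19 and bZIP23 targets, which include the 5 ZIP genes, 2 were higher and 2 lower in H89C11-7, 2 higher and 1 lower in H89C23-10, and 1 higher and 3 lower in H89C4-7. These were 50%, 37.5% and 50% of the 8, beside 37.7%, 22.1% and 66.6% of all tested genes. In the NEET lines none was called higher, and the number called lower was 1 in NEET10-10, 1 in NEET11-9 and 3 in NEET5-4, or 12.5%, 12.5% and 37.5% beside 30.3%, 10.9% and 31%. IRT3, a ZIP family importer in this set, went from a mean of 355 in Col to 269 in H89C11-7, 447 in H89C23-10 and 530 in H89C4-7, log2 changes of -0.40, 0.34 and 0.58 that were all called. The H89C23-10 call was lost without Col replicate 2 (limma adjusted p = 0.0738) or H89C23-10 replicate 2 (0.0679). NAS4, which makes the metal chelator nicotianamine, rose by 1.11 in H89C11-7, and fell by 0.92 in NEET5-4 and by 0.71 in NEET10-10. Its fall of 0.30 in NEET11-9 was lost without Col replicate 1 (limma adjusted p = 0.117) and without any replicate of that line. NAS2 rose by 1.38 in H89C11-7 (limma adjusted p = 0.015) but not when Col replicate 3 was left out (0.84, limma adjusted p = 0.136), and fell by 1.69 in NEET5-4. In H89C23-10 NAS2 fell by 1.5 (limma adjusted p = 0.0148), a call lost without Col replicate 1 (0.0673), without Col replicate 2 (0.0656), without H89C23-10 replicate 2 (0.0944) and with only the groups compared (0.0611).

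Of the ZIP family outside the 10, 7 genes were tested. In H89C4-7 all of them were called, 2 higher and 5 lower, beside 66.6% of all tested genes, and ZIP7 fell most, from 66.2, 76.1 and 51.5 in Col to 7.25, 7.07 and 13.3 (log2 -2.72 ± 0.26 SE, limma adjusted p = 1.06e-09). ZIP7 also fell by 1.17 in H89C11-7, by 1.01 in NEET11-9, by 0.84 in NEET10-10 and by 0.78 in H89C23-10. The NEET10-10 call was lost without Col replicate 2 (limma adjusted p = 0.0645) or NEET10-10 replicate 2 (0.0543), and the H89C23-10 call without Col replicates 1 or 2 or H89C23-10 replicates 1 or 2 (0.0697 to 0.103) and with no filter (0.0535). ZIP2 fell by 0.68 in H89C4-7 and rose by 0.33 in H89C11-7, the latter lost without Col replicate 2 (limma adjusted p = 0.0958). IRT1, the root iron importer that also carries zinc, fell by 1.12 in H89C23-10, by 1.09 in NEET10-10 and by 0.55 in H89C4-7.

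Zinc export genes moved in several lines. HMA2, a pump that loads zinc into the xylem, fell from 93.9, 96.4 and 73.5 in Col to 23.0, 30.3 and 20.02 in H89C4-7 (log2 -1.82 ± 0.16 SE, limma adjusted p = 4.36e-10) and fell by 0.61 in NEET5-4. Its partner HMA4 rose by 0.32 in H89C11-7, by 0.26 in NEET10-10, by 0.22 in H89C4-7 and by 0.15 in NEET5-4, and its rise of 0.15 in NEET11-9 was lost without Col replicate 1 (limma adjusted p = 0.0858) or any replicate of that line. PCR2, a zinc efflux protein of the plasma membrane, rose by 0.69 in H89C11-7 and by 0.48 in NEET10-10, and fell by 1.07 in NEET11-9 and by 1.32 in NEET5-4. Its rise of 0.26 in H89C23-10 was lost without Col replicate 2 (limma adjusted p = 0.128) or H89C23-10 replicate 3 (0.0906). Of the 4 tested metallothioneins 0 were called higher in any line, and 1 to 3 were called lower in each, beside 6.44% to 33% of all tested genes. Several of these falls shrank without Col replicate 1. MT1C went from -0.55 to -0.31 in H89C11-7, MT2B from -0.58 to -0.29 in NEET11-9 and MT2A from -0.75 to -0.49 in NEET5-4. In H89C23-10 the MT1C call was then lost (limma adjusted p = 0.0589), as was that of MT3. MT3 fell by 1.07 in H89C4-7, or by 0.60 without Col replicate 1, and its falls in H89C23-10, NEET10-10 and NEET5-4 were lost without Col replicate 1 (log2 -0.10, -0.11 and -0.15), which held 3145 against 1072 and 1343 in the other Col libraries.

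Among copper transporters and chaperones, HMA5, the pump that exports copper from root cells toward the xylem, rose from 209, 194 and 206 in Col to 609, 614 and 629 in H89C4-7 (log2 1.60 ± 0.10 SE, 3.03-fold, limma adjusted p = 5.44e-13). It rose by 0.66 in H89C11-7, and was called neither in H89C23-10 (0.12, limma adjusted p = 0.443) nor in any NEET line. COPT4 was called lower in H89C4-7 by 1.56 (limma adjusted p = 0.00435), at 10, 7 and 2 reads in Col and 3, 1 and 1 in H89C4-7. It passed the filter on low values with 3 libraries of NEET10-10 and NEET5-4 and none of Col or H89C4-7, so this call rests on few reads. Of the 10 tested genes in this list, 5 were called higher and 3 lower in H89C4-7, beside 66.6% of all tested genes, and NEET5-4 had 1 higher and 4 lower, beside 31%. CCS, the chaperone that delivers copper to superoxide dismutase, rose by 0.42 in H89C4-7 and fell by 0.30 in H89C11-7 and by 0.26 in NEET5-4.

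Of the genes that SPL7 is known to switch, CITF1, a bHLH regulator of copper uptake, had a higher mean than Col in every line, but at very few reads. It had 2, 2 and 0 reads in Col, 10, 10 and 7 in H89C11-7, 9, 6 and 12 in NEET10-10, and 6, 10 and 10 in NEET5-4. The gene passed the filter on low values with 5 libraries of 4 lines and none of Col, so its difference from Col is given here without a test. The counts over the 46 genes and the dots of the heat map still include it, as a higher call in H89C11-7, NEET10-10 and NEET5-4. Each of those calls was lost without Col replicate 3. FSD1, the iron superoxide dismutase that replaces the copper enzymes under copper shortage, rose by 0.25 in H89C11-7 and fell by 0.33 in NEET10-10. It also rose by 0.22 in NEET11-9, a call lost without Col replicate 2 (limma adjusted p = 0.0556) or NEET11-9 replicate 1 (0.0696). The copper enzyme CSD2 fell by 0.32 in H89C11-7, by 0.41 in NEET5-4, by 0.26 in NEET11-9 and by 0.23 in NEET10-10, and rose by 0.22 in H89C4-7. CSD1 fell by 0.36 in NEET11-9 and by 0.35 in NEET5-4.

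Of the other ferric reductase oxidases, some fell and some rose in H89C4-7. FRO2, which reduces iron at the root surface, rose by 0.53 in H89C11-7 and fell by 0.81 in H89C23-10 and by 1.35 in NEET10-10. Its fall of 0.41 in NEET5-4 was lost without Col replicate 1 (limma adjusted p = 0.0656) or NEET5-4 replicate 1 (0.11). FRO7, the chloroplast enzyme, held 2320 in Col, rose to 3652 in H89C4-7 and fell to 921 in NEET5-4, with a smaller fall of 0.19 on the log2 scale in H89C23-10. FRO8, assigned to mitochondria, fell by 1.53 in H89C4-7, from 1448 to 498 on average, by 0.61 in NEET5-4, by 0.30 in NEET10-10, by 0.26 in H89C23-10 and by 0.23 in H89C11-7. With only the groups compared in the fit, calls were also lost among the genes named here outside the 10. They included IRT3 and PCR2 in H89C23-10, bZIP19 and ZIP2 in H89C11-7, and HMA4 in NEET5-4. FSD1 in NEET11-9, and CSD2 and FRO8 in NEET10-10, were among them too (limma adjusted p = 0.0533 to 0.129 for all of these). In NEET11-9 the calls of MT2B (limma adjusted p = 0.149), HMA4 (0.153) and NAS4 (0.0828) were lost. So were MT2B in NEET5-4 (0.0516) and MT1C in H89C23-10 (0.112). MT3 lost its call in H89C23-10 (0.273), NEET10-10 (0.238) and NEET5-4 (0.185).

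Markers of root tissue were lower in H89C4-7 and H89C11-7, and the summed seed storage markers of these lines lay above Col. Those of H89C23-10 overlapped Col only through the highest Col library. The sum of 7 endodermis markers was 1552 to 1713 in Col, 914 to 1143 in H89C11-7 and 779 to 1174 in H89C4-7, and 1298 to 2026 over the other lines. Of 6 tested, 5 fell in H89C11-7 and 6 in H89C4-7, and 0 in H89C23-10, beside 17.9%, 33% and 10.5% of all tested genes called lower. Root hair markers, summed over 5 genes, were 1140 to 1431 in Col, 595 to 898 in H89C11-7, 520 to 686 in H89C4-7 and 1358 to 2139 over the other lines, with 4 of 5 falling in H89C11-7 and 4 in H89C4-7. PRP3 was called higher in H89C23-10 and NEET10-10. Seed storage markers, summed over 8 genes, were 14.7, 24.1 and 183 in Col, listed from low to high. They were 324 to 795 in H89C4-7, 189 to 547 in H89C11-7, 77.5 to 277 in H89C23-10 and 7.74 to 37.5 over the NEET lines. SESA1 was at 0 in Col and in all 3 NEET lines, CRU2 was at 0 in Col and NEET10-10, and SESA3 was at 0 in the 3 NEET lines. The part of these markers in the results for the metal genes was not tested.

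**Figure D4:**
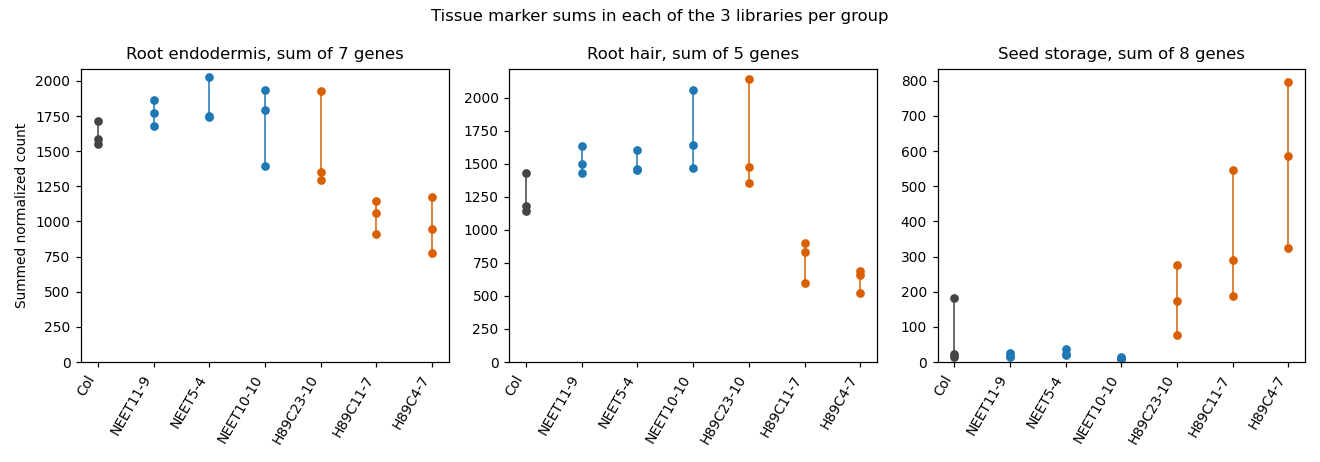
Summed normalized count (y axis) of endodermis, root hair and seed storage markers in each of the 3 libraries per group, joined by a line; Col is black, NEET lines blue and H89C lines orange. Endodermis and root hair sums of H89C11-7 and H89C4-7 lie below all Col libraries, and all 3 seed storage sums of H89C4-7 and of H89C11-7 lie above all Col libraries.

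The constructs were compared on 1 mean per line, 3 H89C lines against 3 NEET lines, because the line and not the library is the unit between constructs. Limma called 0 of the 9 genes and 0 of all tested genes (0%), with 2350 genes at an unadjusted p under 0.05, 11.4% of those tested, and 0 of the 9 among them. The smallest p that an exact permutation test of 3 lines against 3 can give is 0.1. When the libraries were treated as the unit, limma called 12856 genes and 4 of the 9, COPT1, COPT2 and ZIP5 higher in H89C by 0.27, 0.26 and 0.30 and FRO4 lower by 0.60 on the log2 scale. Line means of the constructs overlapped for COPT1, COPT2 and ZIP5. They did not for FRO4, but its nearest lines, H89C11-7 and NEET5-4, did not differ in the fit over all libraries (limma adjusted p = 0.808). COPT1, COPT2 and ZIP5 each had 1 H89C line far from the others, H89C4-7, H89C11-7 and H89C23-10.

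The genes most like each of the 8 members with a mean of at least 10, which leaves out ZIP9 and FRO5, over the 21 libraries, by Pearson's r of log2 values among tested genes with a mean of at least 10, were TOE3 for FRO4 (r = 0.93), UNE10 and HCF153 for COPT1 (0.95 each), and AT4G19380 for COPT2 (0.89). For ZIP5 they were JAL34 and AT5G22340 (0.85 each), for ZIP4 AT5G01020 (0.83), for ZIP3 AT1G51860 and SGP2 (0.82 each), for ZIP1 CP31B (0.82) and for SPL7 HAM3 (0.73). Among these 8 members themselves the strongest relation was between COPT1 and FRO4, with r = -0.59 over 21 libraries. The points of these correlations share their groups and libraries, so they are given as a description.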

How the data were processed

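Total RNA was sequenced from 21 seedling libraries, 3 in each of 7 groups. The deposited signal of each library is its gene counts over a single size factor, applied by the authors. The genome TAIR10, STAR 2.4.0.1, DESeq2 1.20.0 and FastQC 0.11.7 are named in the submitters' processing notes. How reads were counted, stranded or not, and what became of reads with several matches is not given in the sources used here. From the steps between low values 100% of the values came back as whole reads (tolerance 0.001 of a read). Their sums per library were 8.24 to 24.68 mega (M) reads.

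Values were tested as log2(normalized count + 1) by limma-trend (limma 3.58.1, R 4.3.3) with 1 mean per group over all 21 libraries, for the 20699 genes with at least 10 in at least 3 libraries. P-values were adjusted by Benjamini-Hochberg over all tested genes within each contrast and not over the 21 pairs of groups. H89C was compared with NEET on 6 line means. The recovered reads were tested by edgeR 4.0.16 and DESeq2 1.42.0 as alternatives, which called 13520 and 13072 genes in H89C4-7 against 13783 by limma. Other alternatives were the pseudocount, no filter, TMM scaling, only the groups compared, a replicate block and leaving out each library.

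Most genes named outside the 10 are up to 4 per list with a called change of at least 1 on the log2 scale, by smallest adjusted p, and 11 fixed by name. Outside this rule are AtNEET, ALIS1, genes below the filter, single tissue markers and the genes most like each member. MT1C, MT2A and MT2B are also outside it and are named for how their falls depended on Col replicate 1. The 10 genes and all lists were chosen with earlier results of these data known. Sequences and positions are RefSeq's for TAIR10.1, and windows end at the annotated start of each gene. The scripts were tested on simulated data.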

Additional observations from a re-analysis of the deposited data

Results flagged for a closer look

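Lines of 1 construct differed from each other in 16 cases in which at least 1 of the lines was called against Col, each by limma's test of the difference between the lines itself (log2, first line minus the other). Lines of a construct share the same Col libraries. The adjustment was over genes and not over pairs of lines. Differences between lines, here and in the gene paragraphs, were tested in the main fit only and under none of the alternatives.

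Among the H89C lines, H89C4-7 minus H89C11-7 was 0.44 for COPT1, -1.03 for FRO4, -0.78 for COPT2, -1.66 for ZIP9 and -0.43 for ZIP4. H89C4-7 minus H89C23-10 was 0.49 for COPT1, -0.76 for FRO4, -1.65 for ZIP9, -0.38 for ZIP3 and -0.42 for ZIP5. H89C23-10 minus H89C11-7 was -0.86 for COPT2, 0.56 for ZIP3 and 0.54 for ZIP5. The shares of all tested genes called in these 3 pairs were 63.6%, 63.9% and 22.9%. The ZIP9 values rest on 2 to 22 reads per library.

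Among the NEET lines, NEET5-4 minus NEET10-10 was -0.62 for ZIP3. NEET11-9 minus NEET10-10 was 0.29 for COPT1, and NEET5-4 minus NEET11-9 was -0.33 for COPT1. In these 3 pairs 28.1%, 28% and 25.8% of all tested genes were called.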

How the results depend on the processing

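Of 63 results for single genes, 12 were called, 7 of them under every alternative run, and 5 lost their call under some (FRO4 in H89C23-10, ZIP3 and ZIP9 in H89C4-7, and COPT1 in NEET10-10 and NEET5-4). The number of the 9 genes called ranged, with 1 library left out, from 1 to 2 in H89C23-10, 3 to 5 in H89C4-7 (3 without Col replicate 1), 0 to 2 in NEET10-10 and 1 to 3 in NEET5-4. In NEET10-10 it was 0 with no filter, in edgeR, in DESeq2 and with only the groups compared. With only the groups compared, genes called fell to 2430 in H89C23-10, 2497 in NEET10-10 and 865 in NEET11-9, and with 1 library left out NEET11-9 ranged from 1370 to 2875. For H89C against NEET, the libraries as the unit gave 4 of the 9 genes and 12856 genes, and no filter gave 1 gene. The replicate numbers did not pair the libraries (correlations of deviations from -0.03 to 0.09), and with the replicate block 5 genes were still called in H89C4-7, 2 in each of H89C11-7, H89C23-10 and NEET5-4, 1 in NEET10-10 and 0 in NEET11-9, the main counts.

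Directions turned only in results that were not called. ZIP3 in H89C23-10 was -0.034 in edgeR and -0.015 in DESeq2. For H89C minus NEET, ZIP1 was 0.12 without line H89C4-7 and 0.064 without NEET5-4, ZIP3 was 0.0012 without H89C11-7 and 0.043 without NEET10-10, ZIP4 was 0.026 without H89C4-7, and COPT2 was -0.0093 without H89C11-7. With 1 library left out the ranges that crossed 0 were, in H89C11-7, -0.066 to 0.066 for ZIP4, -0.10 to 0.10 for ZIP5, -0.092 to 0.043 for COPT1 and -0.017 to 0.063 for SPL7. In H89C23-10 they were -0.058 to 0.13 for ZIP3 and -0.019 to 0.060 for SPL7. In H89C4-7 they were -0.031 to 0.22 for ZIP5, -0.089 to 0.0057 for COPT2 and -0.010 to 0.069 for SPL7. In NEET10-10 they were -0.23 to 0.077 for ZIP1 and -0.020 to 0.14 for SPL7. In NEET11-9 they were -0.016 to 0.22 for ZIP1 and -0.17 to 0.12 for FRO4, in NEET5-4 -0.037 to 0.043 for SPL7, and for H89C minus NEET -0.065 to 0.036 for ZIP1. The cause of these turns was not tested. Depth limits ZIP9 and FRO5 most, and Col replicate 3, the shallowest library, held 5 ZIP9 reads.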
